A study of Mus musculus with 16 samples.

Results

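The transcripts of 6 AMPA receptor trafficking adaptors were followed in sorted parvalbumin (PV) interneurons of the mouse cortex. The genes were chosen by name: Grip1, Grip2, Pick1, Nsf, Gripap1 and Grasp, 6 of the 54532 genes in the deposited tables. All 6 were found in the tables and all 6 passed the filter on low counts, among the 26257 genes tested. The cells came from adult mice (113.1 ± 11.6 days old over the whole study, with the kind of error not stated) in which Cre recombinase, made in PV cells, switches on a silent reporter. Of 16 libraries, 7 came from PV-Cre;lsl-eGFP-GluA2 mice, whose PV cells make the GluA2 subunit fused to eGFP. The other 9 came from PV-Cre;lsl-eGFP control mice, whose PV cells make eGFP alone, so all mice carry Cre and a fluorescent reporter. Cells were fixed in 4% paraformaldehyde for 15 min before they were dissociated, and were then sorted by fluorescence for a nuclear dye together with the reporter. Each library stands for the cortex of 1 mouse, so far as the protocol tells. Libraries are numbered as biological replicates, and no sex, litter or batch is given for any of them in the sources used here. The comparison tests the removal of calcium-permeable AMPA receptors, per the labels.

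AMPA receptors carry fast excitation and move constantly between the synapse, the cell surface and endosomes. Several of the adaptors bind the intracellular tail of GluA2, the subunit that makes the channel impermeable to calcium and of which PV interneurons hold little. GRIP1 and GRIP2 are scaffolds with many PDZ domains that anchor receptors and link them to motor proteins. PICK1, which joins a PDZ domain to a membrane-bending BAR domain, binds the same end of the tail and takes part in removing receptors from the surface. NSF is an ATPase that takes apart SNARE complexes after membrane fusion and also binds the GluA2 tail, at a stretch nearer to the membrane. Gripap1 encodes GRASP-1, a GRIP-binding protein of recycling endosomes. Grasp encodes tamalin, a scaffold that links group I metabotropic glutamate receptors to cytohesins.

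The PDZ-binding end of the tail is shown here because GRIP1, GRIP2 and PICK1 bind it in GluA2 and GluA3 and because the fusion transgene adds transcripts that encode GluA2. The lines give the last 30 coding bases before the stop codon, 5′ to 3′, from GENCODE M21 on GRCm38. For Gria2, Gria3 and Gria1 alike they come from a transcript annotated as principal. Capitals mark the last 12 bases, which encode the residues at the very end of the protein. The Gria2 bases lie at chr3:80689109-80689138 on the minus strand, those of Gria3 at chrX:41672432-41672461 on the plus strand, and those of Gria1 at chr11:57327614-57327643 on the plus strand. Each run lies within 1 exon.
Gria2: aacgtatatggcatcgagAGTGTTAAAATT
Gria3: aacgtgtatggaacagaaAGTGTTAAGATC
Gria1: tcagggatgcccttgggaGCCACAGGATTG
Gria3 matched Gria2 at 10 of the 12 capital bases and at 23 of all 30. Gria1, whose protein ends in a different type of PDZ ligand, matched Gria2 at 2 of the 12 and at 6 of the 30. Gria4, whose bases are not printed, matched Gria2 at 2 of the 12 and at 9 of the 30.

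Gria2 itself was higher in the mice with the transgene, and its reads can include those of the transgene. In TPM, a unit that scales transcripts for their length and for the library total, it ran from 142 to 300 in eGFP-GluA2 libraries, against 57.2 to 108 in eGFP libraries, with no overlap. Its log2 fold change on counts was 0.71 ± 0.16 (SE). The adjusted p of edgeR's quasi-likelihood test was 1.00 without covariates and 0.0129 with the background of each library as a covariate. This background is the sum, over 1723 autosomal genes for odorant and vomeronasal receptors, of their CPM (counts scaled to the library total). It set 6 libraries apart as high (2 eGFP-GluA2, 4 eGFP), 5 as middle (3 and 2) and 5 as low (2 and 3), and each adaptor result is therefore also given within these tiers. Depth lay between 7454165 and 15462544 counts. The labelled cell type was checked on marker genes: summed PV interneuron markers (10 genes) ran from 6416 to 11015 CPM in eGFP-GluA2 and from 5913 to 10549 CPM in eGFP libraries. Excitatory neuron markers (10 genes) ran from 428 to 486 CPM in eGFP-GluA2 libraries, against 352 to 480 CPM in eGFP libraries (exact permutation p = 0.0182). They were the only one of 8 marker lists with an exact permutation p under 0.05, and their part in the adaptor values was not tested. Between low-background and high-background libraries, PV markers went from 10057 to 11015 CPM down to 5913 to 7967 CPM. Endothelial and mural markers (4.15 to 9.11, against 40.0 to 76.9 CPM), astrocyte markers (17.3 to 31.9, against 46.6 to 65.4) and microglia markers (8.37 to 15.8, against 22.6 to 35.1) were higher with high background. The other lists overlapped between these tiers. In these bulk samples, fewer cells of a type and less RNA per cell cannot be told apart.

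On the TPM scale the adaptors spanned 3 levels. Nsf was the most abundant in every library, with a mean of 177 ± 52.7 TPM (SD, n = 16). Gripap1, Pick1, Grip1 and Grip2 lay close together, at 22.8 ± 4.15, 20.9 ± 4.35, 17.0 ± 3.39 and 15.9 ± 3.57 TPM (SD, n = 16). Grasp was the lowest, at 1.00 ± 0.310 TPM (SD, n = 16). Nsf exceeded Gripap1 in 16 of 16 libraries, by 4.13-fold to 10.7-fold, and Grip2 exceeded Grasp by 11.3-fold to 21.7-fold. The ranges of neighbours in the middle of this order overlapped. Gripap1 was above Pick1 in 12 of 16 libraries and Grip1 above Grip2 in 12 of 16. Pick1 was above Grip1 in 16 of 16, by 1.10-fold to 1.39-fold.

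**Figure D1:**
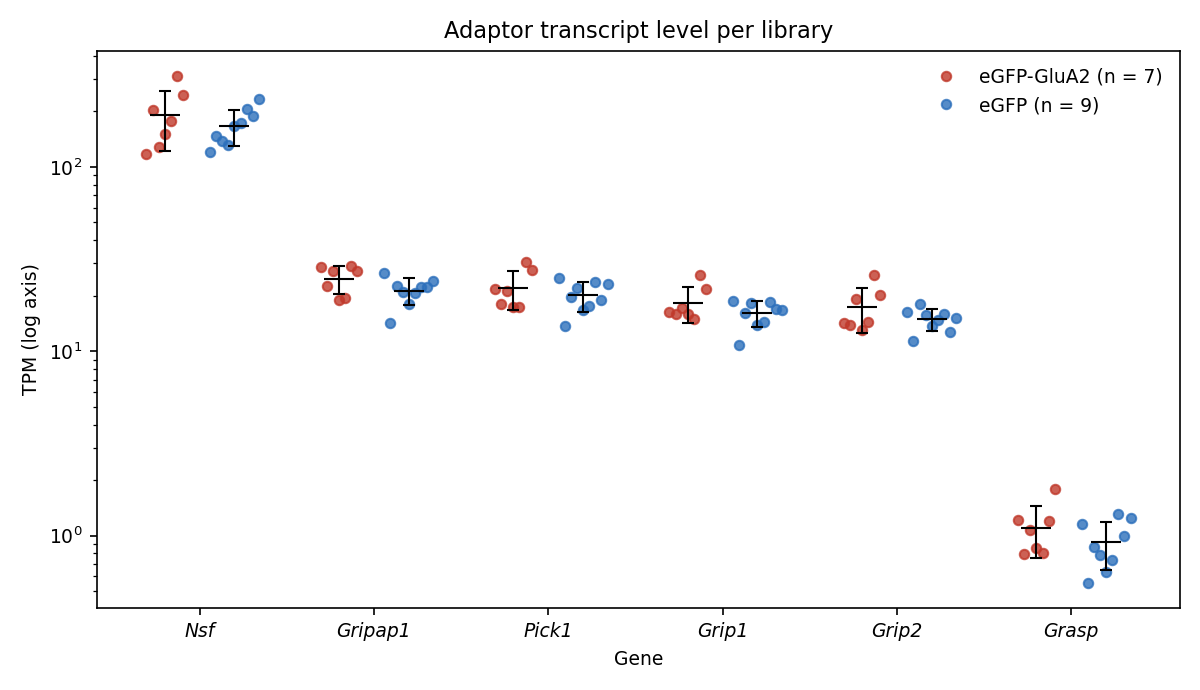
TPM of each adaptor (log axis) in every library, with eGFP-GluA2 libraries (n = 7) left of eGFP libraries (n = 9) and the mean ± SD in black. The groups overlap for all 6 genes, and Nsf and Grasp stand apart from the other 4 genes.

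None of the 6 adaptors passed the test between eGFP-GluA2 and eGFP cells. Over all genes tested, 0.00381% passed (1 of 26257; edgeR's quasi-likelihood test on counts, Benjamini-Hochberg adjusted p under 0.05). At an unadjusted p under 0.05, 0 of the 6 were called, against 1.12% of all genes. Gria2, with an unadjusted p of 0.000375 (edgeR), did not pass the adjusted threshold in this fit either. With the background as a covariate the adaptors again gave 0 calls, while 0.0343% of all genes passed at the adjusted threshold and 3.78% lay under the unadjusted one. DESeq2 also called 0 of the 6, against 0.0495% of all genes, and had 0 of the 6 under an unadjusted p of 0.05, against 1.69%. In log2 CPM (scaled with edgeR's TMM factors) the groups overlapped for all 6, while they did not for 0.019% of all genes. The 6 log2 fold changes ran from 0.01 to 0.25 with a median of 0.09, and all lay above 0, beside 45.5% of all genes above 0 and a median of -0.02. The sign of Nsf turned with relative log expression factors in place of TMM (-0.0012), and that of Gripap1 turned with the background tiers as a factor (-0.016).

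The GRIP paralogs were present at nearly equal levels in both groups. Grip1 (ENSMUSG00000034813, chromosome 10: 119453830 to 120087261, plus strand, 30 merged exons) had 16.3, 15.96, 17.2, 15.8, 15.0, 26.04 and 21.6 TPM in eGFP-GluA2 replicates 1 to 7. In eGFP libraries it ran from 10.8 to 18.8 TPM with a median of 16.8. The groups overlapped, and eGFP-GluA2 replicates 6 and 7 were the highest of all 16 libraries on TPM. On log2 CPM eGFP-GluA2 replicate 4 was the highest, at 7.46, and replicates 6 and 7 had 7.40 and 7.41. Its log2 fold change was 0.12 ± 0.12 (SE; 95% interval -0.14 to 0.38; edgeR adjusted p = 1.00). The interval corresponds to a ratio of 0.906 to 1.30. Exact two-sided permutation on log2 CPM gave p = 0.310, and 0.198 when libraries were exchanged only within background tiers.

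Grip2 (ENSMUSG00000030098, chromosome 6: 91761509 to 91827250, minus strand, 27 merged exons) had 14.2, 13.9, 19.3, 13.0, 14.4, 26.04 and 20.1 TPM in eGFP-GluA2 replicates 1 to 7, and 11.4 to 17.9 TPM with a median of 15.2 in eGFP libraries. Replicates 3, 6 and 7 of the eGFP-GluA2 group exceeded all 9 eGFP libraries, and the others lay within the eGFP range. Its log2 fold change was 0.12 ± 0.13 (SE; 95% interval -0.15 to 0.40; edgeR adjusted p = 1.00). On log2 CPM no eGFP-GluA2 library lay above the highest eGFP library, and the exact permutation p was 0.295. In the low-background libraries the difference in log2 CPM was 0.21 for this gene (2 eGFP-GluA2, 3 eGFP). The middle tier differed in the other direction, by -0.13.

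As a share of Grip1 and Grip2 TPM together, Grip1 stood at 51.7% ± 2.59 in eGFP-GluA2 cells and at 51.8% ± 3.05 in eGFP cells (SD, n = 7 and 9). Over single libraries this share ran from 47.2% to 54.9% in eGFP-GluA2 and from 47.4% to 57.1% in eGFP cells. The balance of the paralogs thus differed by less than the spread between libraries (exact permutation p = 0.948). In deposited counts the share was 50.1% ± 1.43 in eGFP-GluA2 and 50.3% ± 2.83 in eGFP cells.

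Pick1 (ENSMUSG00000068206, chromosome 15: 79229173 to 79249484, plus strand, 10 merged exons) had 21.7, 18.1, 21.3, 17.3, 17.5, 30.3 and 27.7 TPM in eGFP-GluA2 replicates 1 to 7, and 13.7 to 24.9 TPM with a median of 19.7 in eGFP libraries. On TPM, replicates 6 and 7 of the eGFP-GluA2 group were the highest of all 16. Its log2 CPM averaged 4.87 ± 0.14 in eGFP-GluA2 libraries and 4.82 ± 0.16 in eGFP libraries (SD, n = 7 and 9), and on that scale eGFP-GluA2 replicates 5 and 7 exceeded all 9 of the eGFP group. The log2 fold change was 0.05 ± 0.09 (SE), and its 95% interval of -0.13 to 0.23 was the narrowest of the 6 (ratio 0.911 to 1.17; edgeR adjusted p = 1.00). The annotation of Pick1 shares 1222 exon bases, 18.6% of its merged exons, with Gm49486 on the same strand. The deposited counts of Pick1 were 0.426 to 0.601 times the reads recovered from the authors' normalized table, against 0.671 to 0.890 times for all genes together. Gm49486 itself had 0 to 12 counts and 5 to 43 recovered reads per library. The other adaptors also departed from the ratio of all genes together (median over libraries 0.724), in the other direction. Their median ratio of counts to recovered reads was 1.25 for Grip1, 1.26 for Grip2, 1.01 for Nsf, 1.21 for Gripap1 and 1.38 for Grasp. The levels of all 6 are thus uncertain between the 2 tables. How this ratio spreads over other single genes is not given here.

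Nsf (ENSMUSG00000034187, chromosome 11: 103821782 to 103954056, minus strand, 22 merged exons) had 118, 204, 129, 151, 176, 310 and 244 TPM in eGFP-GluA2 replicates 1 to 7, and 120 to 234 TPM with a median of 166 in eGFP libraries. The eGFP-GluA2 range held the whole eGFP range, with replicates 1 and 3 at its low end. The estimate was the least precise of the 6, at a log2 fold change of 0.01 ± 0.29 (SE) with a 95% interval of -0.61 to 0.64 (ratio 0.656 to 1.55; edgeR adjusted p = 1.00). With the background as a covariate the interval narrowed to -0.37 to 0.36.

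The endosomal adaptor Gripap1 (ENSMUSG00000031153, chromosome X: 7789765 to 7820567, plus strand, 25 merged exons) had 28.5, 22.5, 27.2, 18.9, 19.4, 28.9 and 27.3 TPM in eGFP-GluA2 replicates 1 to 7. In eGFP libraries it ran from 14.2 to 26.6 TPM with a median of 22.3. On TPM 4 eGFP-GluA2 libraries exceeded all 9 eGFP libraries, while on log2 CPM 1 did. The log2 fold change on counts was 0.07 ± 0.15 (SE; 95% interval -0.24 to 0.37; edgeR adjusted p = 1.00). Within background tiers the difference was -0.01 in log2 CPM (exact permutation p = 0.895). On log2(TPM + 0.5) it was 0.26 within tiers (exact permutation p = 0.0193, unadjusted, with 6 adaptors so tested). On that scale the median of all genes was itself shifted by 0.14 within tiers, against -0.03 on log2 CPM. The share of all genes under 0.05 in this permutation was not counted.

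Grasp (ENSMUSG00000000531, chromosome 15: 101224188 to 101232756, plus strand, 8 merged exons) was measured with 30 to 78 counts per library. It had 1.21, 0.793, 1.07, 0.859, 0.803, 1.205 and 1.78 TPM in eGFP-GluA2 replicates 1 to 7, and 0.556 to 1.32 TPM with a median of 0.865 in eGFP libraries. Replicate 7 of the eGFP-GluA2 group was the highest, and the other 6 lay within the eGFP range. Its log2 fold change of 0.25 ± 0.17 (SE) was the largest estimate of the 6, with a 95% interval of -0.10 to 0.59 (edgeR adjusted p = 1.00). In log2 CPM 3 eGFP-GluA2 libraries exceeded all 9 eGFP libraries (exact permutation p = 0.158). The difference was unequal between tiers: -0.05 in the low, 0.12 in the middle and 0.64 in the high tier (2 eGFP-GluA2, 4 eGFP). Without the 6 high-background libraries the log2 fold change was 0.05. On TPM within tiers the difference was 0.23 (exact permutation p = 0.0227, unadjusted), beside the shift of 0.14 over all genes. Here too the share of all genes under 0.05 was not counted.

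**Figure D2:**
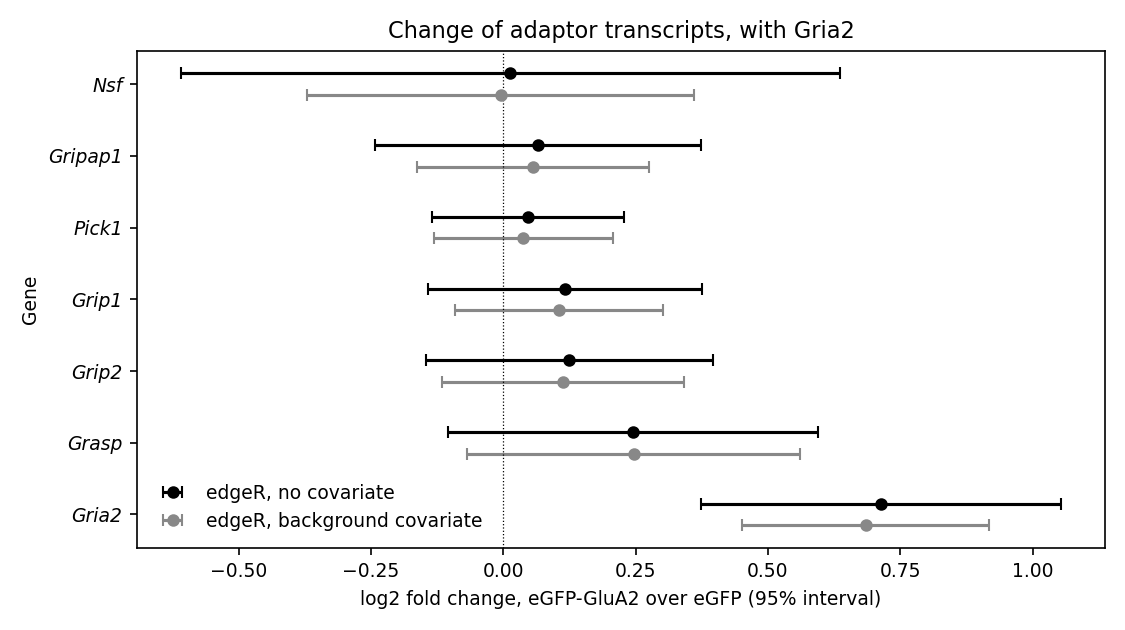
The log2 fold change of eGFP-GluA2 over eGFP (points) with its 95% interval (bars) for the 6 adaptors and Gria2, from edgeR without covariates in black and with the background covariate in grey. Every adaptor interval spans 0, while that of Gria2 lies between 0.37 and 1.05 without covariates. That of Nsf is the widest.

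The log2 fold changes of the authors' deposited table were 0.07 for Grip1, 0.08 for Grip2, 0.01 for Pick1, 0.02 for Nsf, 0.08 for Gripap1 and 0.09 for Grasp. Each of these 6 genes had an adjusted p of 1.00 in the authors' deposited table, in which 9 genes had one under 0.05. Gria2 stood at 0.85 there, with an adjusted p of 4.63e-09 in the authors' deposited table.

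The adaptors were next set against the receptor subunits in each library. For every 100 TPM of Gria2, eGFP-GluA2 cells held 9.91 ± 0.881 TPM of Grip1 and eGFP cells 18.9 ± 0.945 (SD, n = 7 and 9). Grip2 stood at 9.30 ± 1.30 in eGFP-GluA2 and 17.7 ± 2.37 in eGFP cells on the same measure. Pick1 stood at 11.9 ± 1.29 in eGFP-GluA2 and 23.6 ± 1.04 in eGFP cells. Among the 9 eGFP libraries this ratio ran from 21.5 to 25.0 for Pick1, 17.4 to 20.1 for Grip1 and 22.7 to 27.8 for Gripap1. The TPM of these genes differed by more in the same libraries, at 13.7 to 24.9, 10.8 to 18.8 and 14.2 to 26.6. For Nsf the ratio ran from 112 to 258, for Grip2 from 14.4 to 20.7 and for Grasp from 0.854 to 1.38. A ratio of TPM values leaves out any scale that the genes of a library share. The share of all genes with so narrow a ratio was not counted. Gripap1 stood at 13.7 ± 3.09 and 25.1 ± 1.49, and Grasp at 0.596 ± 0.126 and 1.07 ± 0.172, in eGFP-GluA2 and eGFP cells. Nsf was about level with Gria2 in eGFP-GluA2 cells, at 102 ± 23.4 TPM per 100 TPM of Gria2, against 202 ± 51.3 in eGFP cells.

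These ratios to Gria2 were lower in eGFP-GluA2 cells for each adaptor. On the log2 scale the difference lay between -0.99 for Pick1 and -0.85 for Grasp. In 5 of the 6 genes every eGFP-GluA2 library lay below every eGFP library (exact two-sided permutation, p = 8.74e-05, which is the smallest that 11440 assignments can give). For Nsf 5 of 7 eGFP-GluA2 libraries did, with a log2 difference of -0.97 (exact permutation p = 0.000699). The ratio carries the higher level of Gria2, whose reads can include the transgene, and says nothing separate about the adaptors. Over 20561 genes, 36.0% had their eGFP-GluA2 libraries all below the eGFP libraries on this ratio, with a median log2 difference of -1.02. On deposited counts in place of TPM the log2 difference was smaller, -0.59 for Grip1, -0.57 for Grip2, -0.65 for Pick1, -0.67 for Nsf, -0.63 for Gripap1 and -0.47 for Grasp (exact permutation p between 8.74e-05 and 0.0382).

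Against the other 3 subunits, whose transcripts the transgene does not add to, no adaptor ratio passed the test. For every 100 TPM of Gria1, Gria3 and Gria4 together, Grip1 stood at 8.18 ± 1.03 in eGFP-GluA2 and 8.43 ± 1.29 in eGFP cells (exact permutation p = 0.684 on log2). Pick1 stood at 9.83 ± 1.64 in eGFP-GluA2 and 10.5 ± 1.70 in eGFP cells (p = 0.385, exact permutation). Nsf stood at 82.5 ± 13.2 in eGFP-GluA2 and 87.1 ± 13.4 in eGFP cells (p = 0.495, exact permutation). For Grip2, Gripap1 and Grasp the log2 differences were -0.04, -0.01 and 0.04 (exact permutation p = 0.746, 0.955 and 0.800). The 6 differences ran from -0.10 to 0.04, beside a median of -0.13 over 20561 genes, of which 0.0632% had all eGFP-GluA2 libraries below all eGFP libraries. In all, 12 such ratios were compared, and their p-values are not adjusted.

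**Figure D3:**
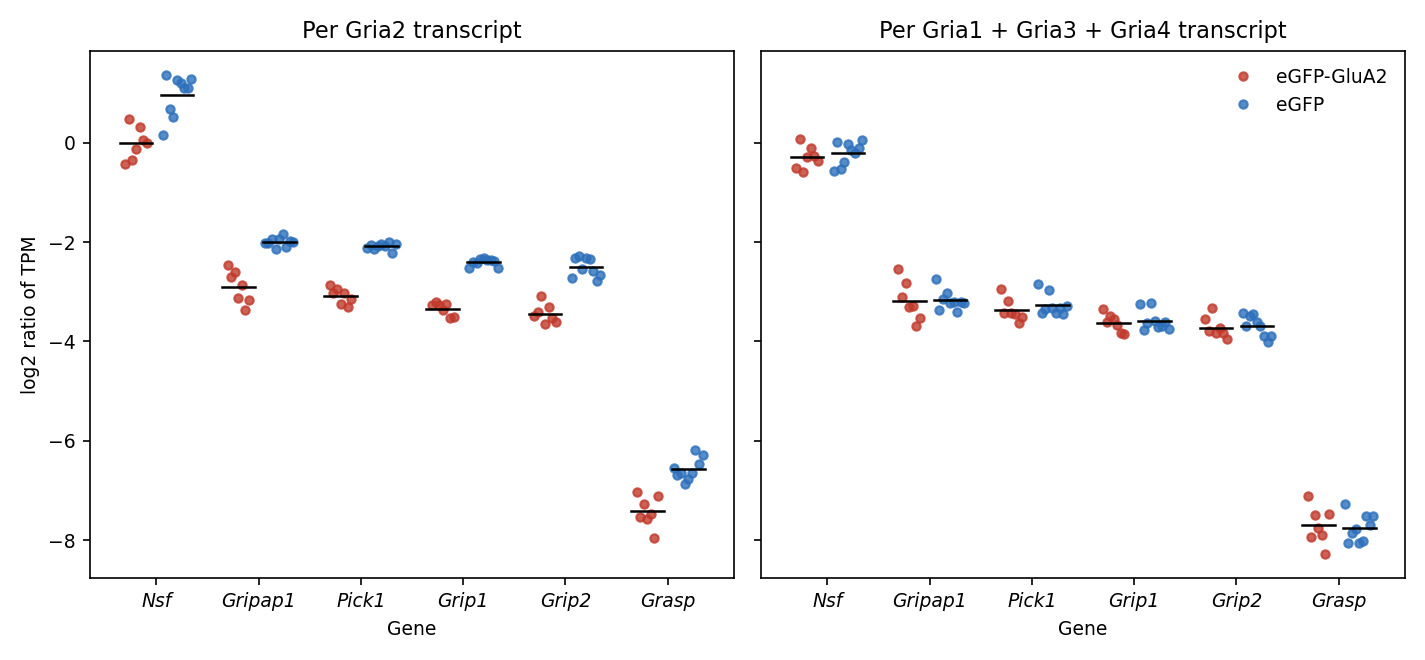
The log2 ratio of each adaptor's TPM to that of Gria2 (left) and to the summed TPM of Gria1, Gria3 and Gria4 (right), per library, with eGFP-GluA2 left of eGFP and group means as black lines. On the left the groups separate for every gene but Nsf, which overlaps in part, and on the right they overlap for all 6.

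Levels were also compared across the tiers of library background. Nsf had a mean log2 CPM of 10.19 in the low, 10.02 in the middle and 8.98 in the high tier, a low-minus-high difference of 1.21. On this scale its high tier did not overlap the other tiers (8.64 to 9.80, against 9.95 to 10.3), and eGFP replicate 2 was the highest library within it. The same held on this scale for Grip1 (6.83 to 7.03 in the high tier, 7.20 to 7.46 in the others) and for Gripap1 (5.91 to 6.54, against 6.60 to 6.76). On log2 CPM scaled by total counts alone, the high tier lay below all other libraries for no adaptor. On log2(TPM + 0.5) it did so for Nsf only. The share of all genes that separate in this way was not counted. By the low-minus-high difference on log2 CPM with TMM factors, 46.9% of the protein-coding genes compared lay below Grip1 and 52.5% below Gripap1. In the low tier Nsf was at 10.15 in eGFP-GluA2 and 10.22 in eGFP cells, a difference of -0.07, and in the high tier the difference was -0.29. Pvalb, the calcium buffer that marks these cells, showed the same order of tiers, with 8.63, 8.22 and 7.13.

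Low-minus-high differences depend on how libraries are scaled, and so they are read against the median of 11828 protein-coding genes of at least log2 CPM 2 on average. That median was 0.48 on log2 CPM with TMM factors, -0.03 on log2 CPM by total counts alone and 0.27 on log2(TPM + 0.5). Nsf lay above it on each scale, at 1.21, 0.70 and 0.84, with 97.1%, 97.1% and 90.0% of those genes below it. Grip1 stood close to the median, at 0.44, -0.07 and 0.29. Gripap1 stood at 0.51, -0.00 and 0.12, and Grip2 below the median on each scale, at 0.31, -0.21 and 0.16. Pick1 stood at 0.24, -0.27 and 0.27. Grasp stood at 0.06 and -0.42 on the CPM scales and at 0.33 on TPM, so its place relative to other genes turned with the scale. The tiers hold both groups and differ in cell type markers, and the part of the background or of the cell content in these levels was not tested.

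**Figure D4:**
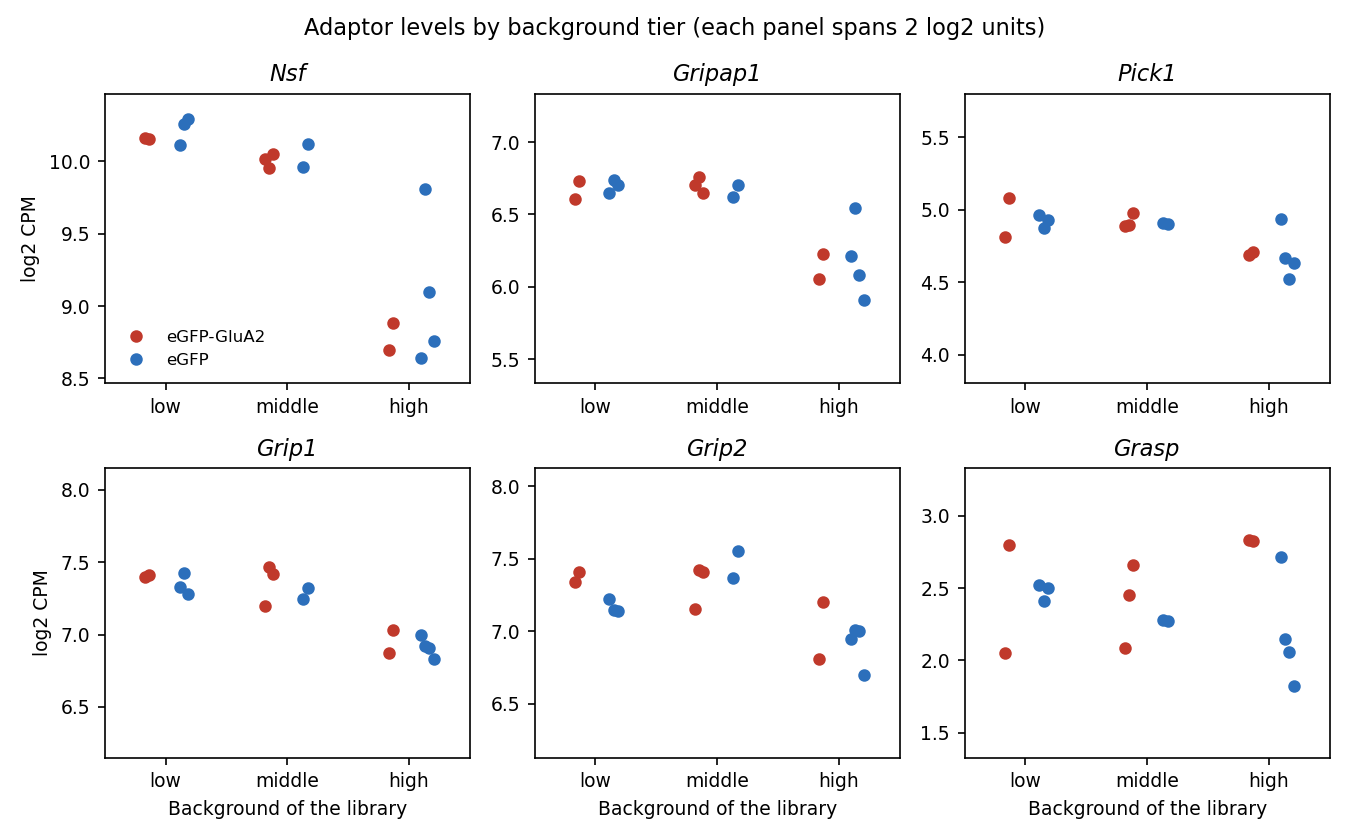
The log2 CPM (TMM-scaled) of each adaptor in libraries of low, middle and high background, with eGFP-GluA2 left of eGFP in each tier and every panel spanning 2 log2 units. Nsf is lowest in the high tier, while Grasp is nearly level over the tiers on this scale.

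The genes whose pattern over the 16 libraries was most like that of each adaptor were found by the root mean square difference of log2 CPM after centring. For Nsf these were Sdha, a subunit of succinate dehydrogenase (0.05), and Kif5c, a neuronal kinesin heavy chain (0.06), beside a median of 0.42 over the protein-coding genes compared. For Grip2 they were Cacna1b, which encodes the pore of N-type calcium channels (0.07), and Rimbp2, a presynaptic active zone protein (0.07), beside a median of 0.28. For Grip1 they were Me3, a mitochondrial malic enzyme, and Mdn1, a factor of ribosome assembly (0.06 and 0.07, median 0.25). For Pick1 they were Prpf40b and Traf7 (both 0.08, median 0.29), and for Gripap1 Elmo2 and Tpm3 (both 0.06, median 0.24). For Grasp the nearest genes, Sept2 and Nxpe4, were farther away, at 0.21 and 0.22 (median 0.45). These patterns hold the differences between background tiers, so likeness does not show shared regulation. The SD of log2 CPM was 0.62 over all libraries and 0.28 within tiers for Nsf, and 0.23 and 0.08 for Grip1. For Grasp it was 0.31 and 0.33.

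Genes known to work with these adaptors gave no call either. Of 55 partners in 6 lists, all tested, 0 passed the adjusted threshold in either direction (edgeR), and 34 had log2 fold changes above 0, with a median of 0.03, beside 45.5% of all genes above 0. At an unadjusted p under 0.05 there was 1 of 55, beside 1.12% of all genes. This was the GRIP partner gene Efnb3, which encodes the ligand ephrin-B3. It averaged 3.10 ± 0.715 TPM in eGFP-GluA2 cells and 2.39 ± 0.531 TPM in eGFP cells (SD, n = 7 and 9). Its log2 fold change on counts was 0.39 ± 0.12 (SE; edgeR adjusted p = 1.00). Of 13 GRIP partners, which include kinesin-1 heavy chains and liprins, 10 were above 0 (median 0.08). Kif5c, also close to Nsf in pattern, had 112 ± 39.5 TPM in eGFP-GluA2 and 102 ± 23.4 TPM in eGFP cells (SD), with -0.02 ± 0.29 (SE) as its log2 fold change on counts.

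Of 8 genes that encode the SNAP cofactors of NSF or the clathrin adaptor AP-2, which binds GluA2 at a site overlapping that of NSF, 5 were above 0 (median 0.02). The one of smallest p was Ap2a1, a large AP-2 subunit, at 0.10 ± 0.25 (SE). Of 6 PICK1 partners, which include protein kinase C alpha and actin-nucleating Arp2/3 subunits, 5 were above 0 (median 0.05), with Prkca at 0.11 ± 0.25. Of 17 genes of recycling endosomes, to which GRASP-1 belongs, 8 were above 0 (median -0.01), with the unconventional myosin gene Myo6 at -0.10 ± 0.10. Of 6 tamalin partners 2 were above 0 (median -0.01), with the neurotrophin-3 receptor gene Ntrk3 at 0.12 ± 0.19. Of 5 other AMPA receptor adaptors 4 were above 0 (median 0.09), with Wwc1, which encodes KIBRA, at 0.10 ± 0.09. Each of the genes named here had an adjusted p of 1.00 in edgeR without covariates.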

How the data were processed

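Per the series' design text, reads of 150 bp were processed by the authors with bcbio-nextgen 1.2.3, STAR on GRCm38, Sailfish with the Ensembl annotation, and DESeq2. The deposited counts are whole reads per gene, not normalized. The deposited TPM values are scaled for transcript length by the authors. Another deposited table gives signal (counts per gene over a size factor for each library). It also holds the log2 fold changes, p-values and test statistic (a score) of the authors' comparison. Of its signal values 100% were whole multiples of 1 read (tolerance 0.001), which gave 10477517 to 17382059 recovered reads per library. The sources used here do not say which step made each table, or whether counting used strand.

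Genes were named from GENCODE M21 (54495 of 54532). Counts were tested in R 4.3.3 with edgeR 4.0.16 (TMM, filterByExpr, robust quasi-likelihood F test, Benjamini-Hochberg over 26257 genes). The filter kept 99.2% of counts. Standard errors and 95% intervals come from that fit. Log2 CPM used a prior count of 2. Single values were compared by exact two-sided permutation over 11440 assignments, or 1500 within background tiers (under 500, 500 to 1500 and over 1500 CPM). Alternatives were DESeq2 1.42.0, limma 3.58.1 on log2(TPM + 0.5), other scalings, filters, covariates and left-out libraries. The edgeR fits with and without the background covariate were tested on simulated counts that held no effect of background. How the fits behave under such an effect was not tested. Members and lists were chosen with earlier results of these data known. The ratios to AMPA subunits were chosen after seeing the data. Named genes are the 6 adaptors, Gria2, Pvalb, the partner of smallest p in each list (Kif5c besides, chosen after its values were seen) and the 2 genes nearest in pattern to each adaptor.

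P-values set the difference between groups against the spread between these libraries, with replicate numbers not taken as pairs.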

Additional observations from a re-analysis of the deposited data

Results flagged for a closer look

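One value lay apart from its group. Grasp had 1.78 TPM in eGFP-GluA2 replicate 7, and the nearest of the other 6 eGFP-GluA2 libraries had 1.21. The gap was 0.578 of the group's whole range, above Dixon's 95% critical value of 0.568. Of 26 groups tested in this way 1 was set apart, and chance sets apart about 1 in 20. In log2 CPM the same library, at 2.79, lay below replicates 1 and 3 of its group, both at 2.83.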

How the results depend on the processing

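Over 31 alternatives, 16 of which leave out 1 library each, 0 adaptors and 0 partners passed, and the smallest adjusted p of any adaptor was 0.576. Grip1, Grip2, Pick1 and Grasp kept log2 fold changes above 0 in each (0.05 to 0.18, 0.06 to 0.19, 0.0027 to 0.12 and 0.05 to 0.32). Nsf turned to -0.00118 with DESeq2, -0.00117 with relative log expression scaling, -0.00432 with the background covariate, -0.16 with the tiers as a factor, -0.064 without the high-background libraries and -0.16 without eGFP-GluA2 replicates 6 and 7; without single libraries it ran from -0.082 to 0.14. Gripap1 was -0.016 with the tiers as a factor. The cause was not tested. The count of all genes past the threshold, 1, was 13 with DESeq2, 7 with a replicate block, 9 with the background covariate, 11 with the tiers, 2 on each TPM setting, 3 and 5 on recovered reads without and with the background covariate, and 3 without the high-background libraries. Without single libraries it was 1 throughout. Under the replicate block the adaptors gave 0 calls, with log2 fold changes of 0.18 (Grip1), 0.14 (Grip2), 0.07 (Pick1), 0.20 (Nsf), 0.14 (Gripap1) and 0.29 (Grasp). The block gave 1934 genes an unadjusted p under 0.05, against 293 without it. Same-numbered libraries deviated from their group means with correlations of 0.89, 0.63, 0.89, -0.03, 0.19, 0.21 and 0.90 for numbers 1 to 7. Of these 14 libraries, 5 correlated best with their own number. These values do not settle whether the numbers are pairs. The labels state no pairing, and the numbers were not taken as pairs. Numbers 1, 3, 5 and 7 fell in the same background tier in both groups. The difference in the Grip1 share, in percentage points, ran from -0.64 to 0.66 without single libraries. The ratios to Gria2 kept their direction and stayed under 0.05 by exact permutation in each of 20 alternatives. Those to the other subunits were never under it in 17 alternatives each. Without single libraries these ran from -0.086 to 0.0030 (Grip1), -0.10 to 0.0046 (Grip2), -0.11 to 0.075 (Gripap1) and -0.057 to 0.14 (Grasp), and Gripap1 was 0.015 within tiers. Grasp rests on 30 to 78 counts.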
